A study of Homo sapiens with 9 samples.

Results

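The genes described here are 9 genes of the retinoic acid pathway, comprising nuclear receptors (RARA, RARG, RXRA and RXRB) and genes of retinoid metabolism and transport (ALDH1A1, ALDH1A3, DHRS3, RDH10 and CRABP2), of the 59563 named genes in the deposited tables. They were chosen by symbol, with their fold changes under both drugs already known, so their values in these comparisons are a description and no test of them is offered as support. Poly(A) RNA was measured in MOLM13, an established human acute myeloid leukaemia line with a KMT2A rearrangement, after 72 h with the solvent DMSO, 1 µM iberdomide (CC-220) or 50 nM mezigdomide (CC-92480). The titles and protocol of the mezigdomide samples read CC-92480, while their treatment field reads CC-92840; the former is used here. Each of the 3 groups had 3 libraries. Both drugs bind the ubiquitin ligase subunit cereblon, and were given at different concentrations. A single cell line was used. The labels do not tell whether a group's libraries are separate cultures, and the errors may then be technical. The 2 tables give, for each gene, a mean over all 9 libraries, a log2 fold change over DMSO, its standard error (SE) and an adjusted p-value, and no value per library. The values are therefore given per group, and the spread between libraries enters only through the SE.

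Retinoic acid is the active acid form of vitamin A. Retinol is oxidised to retinal by dehydrogenases such as RDH10, and retinal is oxidised to retinoic acid by the ALDH1A enzymes, while DHRS3 returns retinal to retinol. CRABP2 carries the acid to the nucleus, where receptors of the RAR family, paired with an RXR, bind DNA and switch from repression to activation when the acid binds, and CYP26 enzymes break it down. In myeloid cells this pathway promotes granulocyte maturation, and the fusion of RARA with PML defines acute promyelocytic leukaemia.

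Across all genes, 14.1% of 19497 passed an adjusted p under 0.05 under iberdomide by the authors' deposited table, made up of 7.3% higher and 6.77% lower, and 21.2% of 20819 under mezigdomide (10.4% higher and 10.7% lower). The libraries held between about 2.09e+07 and 2.53e+07 counted reads, as recovered from genes with 1 read in 1 library. All 9 myeloid identity markers checked had means of 2535 to 23353 normalised counts. Of these, LYZ (1.39 and 1.51 under iberdomide and mezigdomide), CSF1R (1.34 and 1.54), MPO (0.91 and 1.11), CSF3R (0.42 and 0.45) and CD33 (0.24 and 0.19) were called higher under both drugs, CEBPA under iberdomide (0.26, against 0.22 and no call under mezigdomide), and 0 were called lower, per the authors' deposited table. Of 10 markers of other cell types, 6 had a mean under 1, with HBB at 0, and PECAM1, which monocytes also express, had the highest at 4067. Among the markers of other cell types COL1A1 (1.41 and 1.49 under iberdomide and mezigdomide) and PECAM1 (0.30 and 0.48) were called higher, and KRT18 (-0.43) lower under mezigdomide, per the authors' deposited table. The part of either marker list in the results was not tested.

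Of the 9 retinoid genes, 7 were tested under iberdomide, where RXRA was called higher and RARG and ALDH1A3 lower. Under mezigdomide 8 were tested, with RXRA called higher and RARG, ALDH1A3 and RARA lower. ALDH1A1 had no read in any library, and CRABP2 was below the authors' filter under iberdomide. Since the genes were chosen with these values known, nothing is read from these counts against the shares of all genes above.

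**Figure D1:**
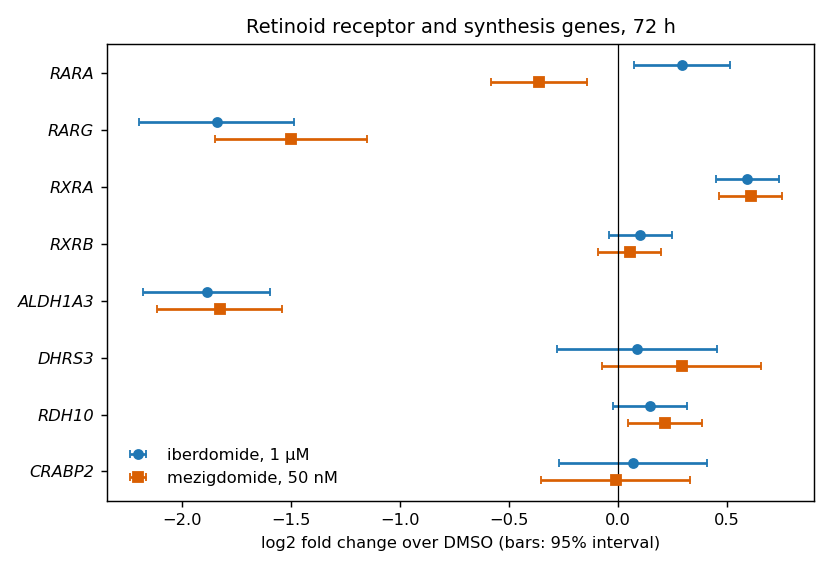
Log2 fold change over DMSO (horizontal axis) of the 8 retinoid genes with reads, as circles for 1 µM iberdomide and squares for 50 nM mezigdomide. Bars are 95% intervals from the deposited SE. RARG and ALDH1A3 lie far to the left under both drugs, RXRA lies to the right, and RARA lies on opposite sides of 0.

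RARG, the gamma receptor for retinoic acid (ENSG00000172819, chromosome 12, 53210567 to 53232980, GRCh38), stood at 27.9% of its DMSO level under iberdomide, a log2 fold change of -1.84 (SE 0.18, Wald test, Benjamini-Hochberg adjusted p = 3.84e-22) per the authors' deposited table. Under mezigdomide the authors' deposited table puts it at 35.3% (log2 -1.50, SE 0.18, adjusted p = 1.31e-15). A group level was computed from the deposited mean and both fold changes. For RARG it was 185 normalised counts in DMSO, 51.7 under iberdomide and 65.5 under mezigdomide, so that both drug groups were low. Ranked by log2 fold change from the lowest, RARG came 21st of 19497 genes under iberdomide and 67th of 20819 under mezigdomide.

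RARA, the alpha receptor (ENSG00000131759, chromosome 17, 40309192 to 40357643), was the one retinoid gene with fold changes of opposite sign and an interval away from 0 under each drug. From the authors' deposited table its log2 fold change was 0.30 (SE 0.11) under iberdomide, which did not pass (adjusted p = 0.0554), and -0.36 (SE 0.11, adjusted p = 0.00872) under mezigdomide. The 95% intervals ran from 0.077 to 0.51 and from -0.58 to -0.14. The implied levels were 1011 normalised counts in DMSO, 1240 under iberdomide and 786 under mezigdomide. Mezigdomide thus stood 0.66 log2 units below iberdomide (difference -0.66, 95% interval -0.97 to -0.35), the 17th lowest of 19497 such differences. The RARA call under mezigdomide and the lack of one under iberdomide both depend on the processing. With a trend on GC content and length removed, its value was 0.41 (adjusted p = 0.00302) under iberdomide and -0.20 (adjusted p = 0.242) under mezigdomide, while the difference between the drugs was -0.61. The longest annotated RARA transcript has a GC content of 63.0%, and the part of base composition in the result was not tested beyond this. Genes on the opposite strand cover 17.9% of the RARA exon bases, and the kit is not stated to keep strand. The largest of them, RARA-AS1, had a mean of 1.68 normalised counts per the authors' deposited table.

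RARB, the beta receptor and a classical retinoic acid target, is not among the 9 genes and had few reads, averaging 8.63 normalised counts, and log2 fold changes of -0.17 (adjusted p = 0.757) and -0.21 (adjusted p = 0.599) per the authors' deposited table. Per kilobase of exon, RARA made up 84.7% of the summed implied level of the 3 RAR genes in DMSO, 95.5% under iberdomide and 91.7% under mezigdomide. The RARG share was 14.3%, 3.67% and 7.05% in the same order. The summed level was 252 normalised counts per kilobase in DMSO, 274 under iberdomide and 181 under mezigdomide. RARA was therefore the main RAR transcript in every group, and the RAR sum lay above DMSO in one drug group and below it in the other. These sums come from fitted values and carry no error of their own.

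RXRA (ENSG00000186350, chromosome 9, 134317098 to 134440585) is a common partner of RARs and of the receptors for oxysterols, vitamin D and fatty acids. It rose 1.51-fold under iberdomide (log2 0.60, SE 0.074, Wald test, adjusted p = 4.19e-14) and 1.53-fold under mezigdomide (log2 0.61, SE 0.074, adjusted p = 5.38e-15) per the authors' deposited table. Its implied level went from 3209 normalised counts in DMSO to 4849 and 4902, and the interval of the difference between the drugs ran from -0.19 to 0.22. RXRB, the second RXR (ENSG00000204231, chromosome 6, 33193588 to 33200688), stood at 0.10 (SE 0.074, adjusted p = 0.457) and 0.055 (SE 0.073, adjusted p = 0.696) per the authors' deposited table and did not pass. RXRG had no read in any library, where 3 counts over all 9 libraries, a mean of 0.333, is the limit that a count of 0 allows. The summed RXR level per kilobase was 3.55 times the summed RAR level in DMSO, 3.97 times under iberdomide and 5.92 times under mezigdomide.

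ALDH1A3, which makes retinoic acid from retinal (ENSG00000184254, chromosome 15, 100877714 to 100916626), stood at 27.0% of DMSO under iberdomide (log2 -1.89, SE 0.15, Wald test, adjusted p = 1.35e-34) per the authors' deposited table. Under mezigdomide it stood at 28.2% (log2 -1.83, SE 0.15, adjusted p = 1e-33) there. The implied levels were 229 normalised counts in DMSO, 61.7 under iberdomide and 64.4 under mezigdomide. Both drug groups were low, and the difference between them was 0.060 with a 95% interval of -0.35 to 0.47. A gene on the opposite strand, AC015712.2, covers 27.5% of the ALDH1A3 exon bases, and its reads cannot be told apart without strand. From the authors' deposited table AC015712.2 had a mean of 66.7 normalised counts and stood at -0.39 under both drugs (adjusted p = 0.148 and 0.113). ALDH1A1 was at 0 in all libraries, again with a limit of a mean of 0.333, and the third enzyme of the family, ALDH1A2, had a mean of 2.33. ALDH1A3 thus gave 99.4% of the ALDH1A level per kilobase in DMSO, and 97.6% and 97.5% under iberdomide and mezigdomide.

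**Figure D2:**
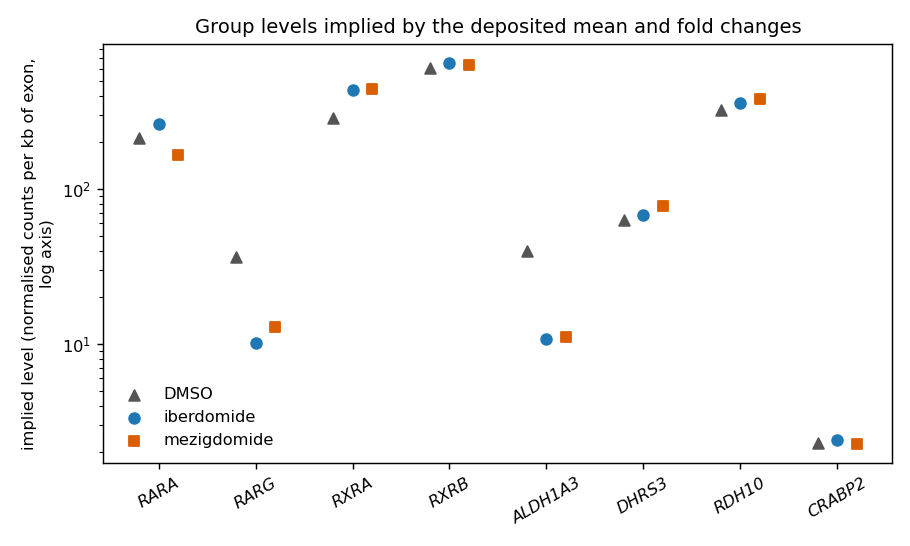
Level of each retinoid gene with reads in each group, in normalised counts per kilobase of exon on a log axis, with triangles for DMSO, circles for iberdomide and squares for mezigdomide. Each point is computed from the deposited mean over 9 libraries and the deposited fold changes, with no error per group. RARG drops from 36.2 in DMSO to 10.1 and 12.8, and ALDH1A3 from 39.6 to 10.7 and 11.2.

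The sequences upstream of RARG and ALDH1A3, which fell under both drugs, and of the 3 RefSeq starts of RARA, whose fold changes differed in sign, are shown so that their base content and receptor motifs can be read. Each is the 250 bases before a RefSeq start (GRCh38.p14), 5′ to 3′ on the gene's strand. Capitals mark the retinoid receptor hexamer, spelled AGGTCA or AGTTCA or GGGTCA or GGTTCA, and the Ikaros core TGGGAA, on either strand. RefSeq starts were found for 8 of the 9 genes.
RARG, chr12:53232210-53232459, minus strand: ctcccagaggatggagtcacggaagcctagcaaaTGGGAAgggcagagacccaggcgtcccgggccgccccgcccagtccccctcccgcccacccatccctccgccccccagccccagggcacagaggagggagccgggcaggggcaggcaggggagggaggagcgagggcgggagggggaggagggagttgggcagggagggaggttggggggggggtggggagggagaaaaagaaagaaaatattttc
ALDH1A3, chr15:100879581-100879830, plus strand: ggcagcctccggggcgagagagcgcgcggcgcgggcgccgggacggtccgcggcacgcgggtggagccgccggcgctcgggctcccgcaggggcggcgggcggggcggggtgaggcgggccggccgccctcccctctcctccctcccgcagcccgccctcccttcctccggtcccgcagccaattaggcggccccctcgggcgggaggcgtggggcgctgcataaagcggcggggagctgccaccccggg
RARA start 1, chr17:40308930-40309179, plus strand: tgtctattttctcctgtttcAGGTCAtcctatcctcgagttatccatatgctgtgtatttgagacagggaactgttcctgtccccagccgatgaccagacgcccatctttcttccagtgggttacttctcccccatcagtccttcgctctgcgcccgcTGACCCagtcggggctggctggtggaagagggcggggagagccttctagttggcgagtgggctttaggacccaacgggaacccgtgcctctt
RARA start 2, chr17:40317995-40318244, plus strand: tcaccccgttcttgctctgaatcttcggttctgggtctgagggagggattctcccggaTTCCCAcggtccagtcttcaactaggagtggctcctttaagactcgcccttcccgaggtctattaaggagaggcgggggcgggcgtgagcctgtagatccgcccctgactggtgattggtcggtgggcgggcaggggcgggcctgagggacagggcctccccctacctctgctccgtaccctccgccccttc
RARA start 3, chr17:40341916-40342165, plus strand: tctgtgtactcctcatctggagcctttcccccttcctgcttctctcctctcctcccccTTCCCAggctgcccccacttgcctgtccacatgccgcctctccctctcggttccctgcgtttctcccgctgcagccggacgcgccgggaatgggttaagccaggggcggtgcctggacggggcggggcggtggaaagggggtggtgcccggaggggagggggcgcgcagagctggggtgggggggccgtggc

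The RARG window held 1 Ikaros core, first base at -216 from the start, and no receptor hexamer. The ALDH1A3 window held neither motif and was richer in GC (82.4%) than 98.6% of all promoter windows. At RARA, start 1 held 2 receptor hexamers and no Ikaros core, while starts 2 and 3 each held 1 Ikaros core and no hexamer. RXRA, which rose, held 1 hexamer at its start 2 and neither motif at its start 1, where GC was higher still (89.2%). DHRS3, called under neither drug, held 1 hexamer and 1 Ikaros core at its start 2. Its start 3 held 1 hexamer and its start 1 neither motif. Also without a call, CRABP2 held 1 hexamer, while RXRB and ALDH1A1 held neither motif. A link between motifs or GC and the fold changes was not tested. Of 35116 windows of the same length, 33.8% held a receptor hexamer and 20.8% an Ikaros core, so either match is common. No window of these genes held a pair of hexamers as a direct repeat with a spacer of 1, 2 or 5 bases, the arrangements that RAR and RXR pairs are known to bind, and 0.0968%, 0.0313% and 0.074% of all windows did. The deposited counts sum over all starts of a gene, so that which RARA start was in use is not measured here. The bases just after the start were found unbroken in an annotated transcript of the gene at RARG, ALDH1A3, ALDH1A1 and CRABP2. At RXRB and DHRS3 they were found for start 2 only, and at RARA and RXRA for no start.

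The remaining genes of retinoid metabolism and transport did not pass under either drug. RDH10, which makes retinal from retinol (ENSG00000121039), stood at 0.15 (SE 0.087, adjusted p = 0.312) under iberdomide and 0.22 (SE 0.087, adjusted p = 0.0558) under mezigdomide per the authors' deposited table. The second value passed when only genes averaging 50 or more were kept (adjusted p = 0.039) and when fold changes were centred (0.23, adjusted p = 0.0386). Its implied levels were 1734, 1924 and 2017 normalised counts in DMSO, iberdomide and mezigdomide. DHRS3, which reduces retinal and is itself known as a retinoic acid target (ENSG00000162496, chromosome 1, 12567910 to 12617731), stood at 0.087 (SE 0.19, adjusted p = 0.872) and 0.29 (SE 0.19, adjusted p = 0.3) per the authors' deposited table. With an interval of -0.073 to 0.66 under mezigdomide, a rise of DHRS3 up to 1.58-fold cannot be told from none. CRABP2 (ENSG00000143320, chromosome 1, 156699606 to 156705816) had 22.9 normalised counts in all 9 libraries together, and a change in it was not detectable at this depth (0.071, SE 0.17, and -0.0090, SE 0.17, per the authors' deposited table).

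Per kilobase of exon the order of the implied levels in DMSO was RXRB (607 normalised counts), RDH10 (326), RXRA (290), RARA (214), DHRS3 (63.6), ALDH1A3 (39.6), RARG (36.2), CRABP2 (2.28) and ALDH1A1 at 0. Divided by the longest transcript instead of all exon bases, RXRA (556) came above RDH10 (439) and RARG (62.7) above ALDH1A3 (58.3). Neither pair of neighbours therefore has a settled order, and no spread over libraries is available to separate the others.

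**Figure D3:**
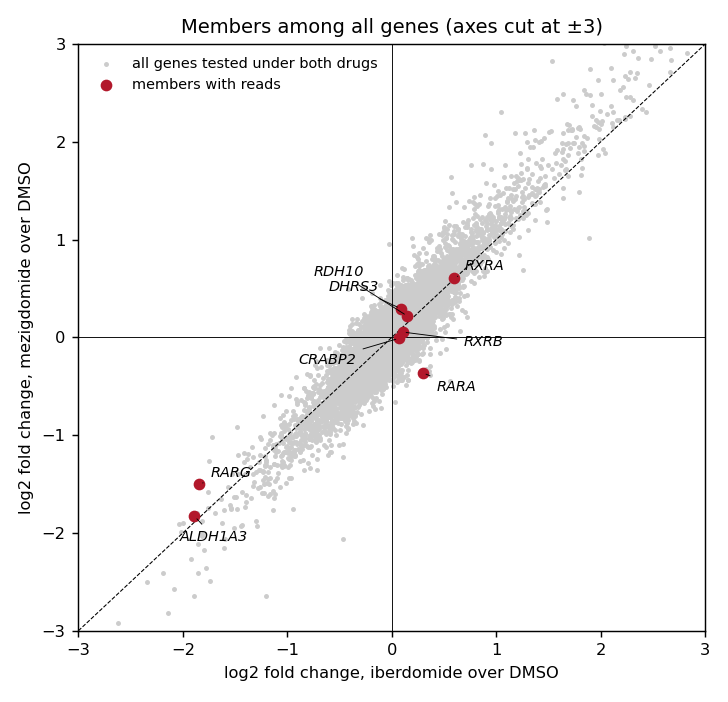
Log2 fold change over DMSO under iberdomide (horizontal axis) and mezigdomide (vertical axis), in grey for 19497 genes tested under both drugs and in red for the 8 retinoid genes with reads. The axes stop at 3 in each direction, which leaves out 32 genes. The dashed line marks equal values. Both axes share the DMSO libraries, so the diagonal trend is not read as a result. RARA lies at the lower right and RARG and ALDH1A3 at the lower left.

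Between the drugs, the difference in log2 fold change (mezigdomide minus iberdomide) had a 95% interval away from 0 in 1 of the 8 retinoid genes with reads, RARA. These intervals are not adjusted for the number of genes. The share of all genes with such an interval was not computed, so nothing is read from this count. The values are set side by side at unequal doses and describe these groups, not the potency of the compounds. The difference was 0.34 in RARG (95% interval -0.16 to 0.84), 0.21 in DHRS3 (-0.31 to 0.72), 0.068 in RDH10 (-0.17 to 0.31), -0.048 in RXRB (-0.25 to 0.16) and -0.080 in CRABP2 (-0.56 to 0.40). These intervals take both errors as independent and are too wide, since the drugs share their DMSO libraries. With an error correlation of 0.5 that of RARG ran from -0.010 to 0.69 and that of RARA from -0.88 to -0.44.

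**Figure D4:**
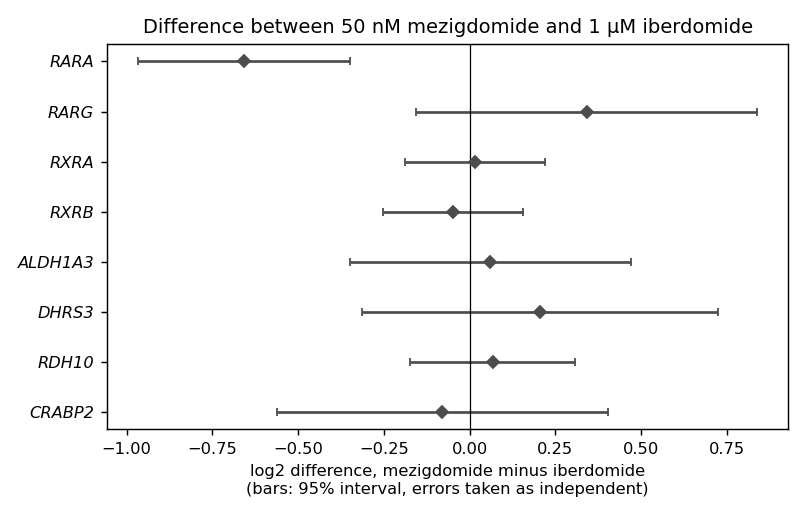
Mezigdomide minus iberdomide log2 fold change (horizontal axis) of the 8 retinoid genes with reads, with bars for 95% intervals that take both errors as independent. The RARA interval, -0.97 to -0.35, lies left of 0, and the other intervals include 0.

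The wider pathway was read from 7 lists of 88 other genes found in the tables, of which 58 were tested under iberdomide and 60 under mezigdomide. Under iberdomide 7 rose and 4 fell, and under mezigdomide 12 rose and 7 fell per the authors' deposited table. The called share was 19.0% under iberdomide and 31.7% under mezigdomide, beside 14.1% and 21.2% of all genes tested. The median log2 fold changes of the lists were 0.046 and 0.12, against -0.0095 and -0.0070 for all genes tested. These lists were chosen with earlier results of these data known, so nothing is read from these shares and medians.

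Among 13 other receptors and RXR partners, 10 were tested, of which 1 rose under iberdomide and 2 rose and 2 fell under mezigdomide. NR1H3, the oxysterol receptor LXR alpha that pairs with RXRA, rose 4.05-fold under iberdomide (log2 2.02, SE 0.13, adjusted p = 1.8e-48) and 3.79-fold under mezigdomide (log2 1.92, SE 0.13, adjusted p = 4.12e-44) per the authors' deposited table. Its relative NR1H2 stood at -0.16 (adjusted p = 0.258) and fell by 0.23 under mezigdomide (adjusted p = 0.0421), a call lost with no filter on low means (adjusted p = 0.0713), after centring (-0.22, adjusted p = 0.0602) and with the GC and length trend removed (-0.082, adjusted p = 0.619). The vitamin D receptor VDR stood at 0.13 (adjusted p = 0.356) and rose under mezigdomide (0.25, adjusted p = 0.0123), and the orphan receptor NR4A1 stood at -0.47 (adjusted p = 0.0531, or 0.0392 when only genes averaging 50 or more were kept) and fell by 0.65 under mezigdomide (adjusted p = 0.00183) per the authors' deposited table. PPARG, the fatty acid receptor, did not pass under either drug (0.20, adjusted p = 0.378, and 0.15, adjusted p = 0.482).

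Of 11 genes of retinoid uptake and transport, 3 had no read and 4 were tested. Under iberdomide 0 passed the Wald test (2 higher and 0 lower at an unadjusted p under 0.05). The share of all genes at that unadjusted threshold was not computed, so nothing is read from the 2. Under mezigdomide 1 passed, the retinol carrier RBP5, at 0.76 (SE 0.22, adjusted p = 0.00439) with a mean of 29.6 normalised counts per the authors' deposited table. The retinol importer STRA6 had a mean of 0.213, and CRABP1 was at 0.

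Of 19 other enzymes that interconvert retinol and retinal, 9 were tested. Under iberdomide 0 passed the Wald test (0 higher and 1 lower at an unadjusted p under 0.05, again with no share of all genes computed). Under mezigdomide the aldo-keto reductase AKR1C3 fell by 0.55 (SE 0.21, adjusted p = 0.0441) per the authors' deposited table, a call lost with no filter on low means (adjusted p = 0.0747), after centring (-0.53, adjusted p = 0.0515) and with the trend removed (-0.54, adjusted p = 0.0533). Of 10 genes of retinyl esters and carotenoid cleavage 7 were tested, of which 1 rose and 1 fell under each drug. The carboxylesterase CES1 rose 1.54-fold and 1.73-fold (log2 0.62, SE 0.075, adjusted p = 9.77e-15, and 0.79, SE 0.075, adjusted p = 4.45e-24). LIPE, the hormone-sensitive lipase, fell under both drugs (log2 -1.80, SE 0.18, adjusted p = 2.05e-20, and -2.18, SE 0.19, adjusted p = 5.49e-29) per the authors' deposited table.

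Of the 7 other genes of retinoic acid formation and breakdown, CYP26A1 and CYP26B1 had no read in any library. CYP2S1, a cytochrome P450 reported to oxidise retinoic acid, rose 3.50-fold under iberdomide (log2 1.81, SE 0.12, adjusted p = 2.12e-52) and 3.54-fold under mezigdomide (log2 1.82, SE 0.12, adjusted p = 7.99e-54) per the authors' deposited table. It was the only one of the 2 genes tested under iberdomide, and of the 4 tested under mezigdomide, that passed.

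All 15 receptor corepressors and coactivators were tested, with 0 higher and 1 lower under iberdomide and 2 higher and 1 lower under mezigdomide. GPS2, a subunit of the NCOR corepressor complex, fell under both drugs (log2 -0.43, SE 0.077, adjusted p = 7.59e-07, and -0.49, SE 0.077, adjusted p = 6.8e-09) per the authors' deposited table, and 44.7% of its exon bases are shared with a gene on the same strand. The corepressor scaffold NCOR1 (-0.065, adjusted p = 0.787, and 0.10, adjusted p = 0.532) did not pass, nor did PML (0.053, adjusted p = 0.878, and 0.019, adjusted p = 0.948). Under iberdomide the coactivator NCOA3 stood at 0.25 (adjusted p = 0.381) and the corepressor subunit TBL1XR1 at 0.16 (adjusted p = 0.0973). Both rose under mezigdomide per the authors' deposited table (0.51, adjusted p = 0.00813, and 0.25, adjusted p = 0.00137). Both calls were lost with the trend removed (0.38, adjusted p = 0.082, and 0.10, adjusted p = 0.346).

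Of 19 genes known to be induced by retinoic acid and found in the tables, 13 were tested. Of them 4 rose and 2 fell under iberdomide, and 5 rose and 2 fell under mezigdomide, with medians of 0.078 and 0.18. These calls were 46.2% and 53.8% of the genes tested, where all genes gave 14.1% (7.3% higher and 6.77% lower) and 21.2% (10.4% higher and 10.7% lower). The list was chosen with earlier results known, and nothing particular to it is read from these shares. The transglutaminase TGM2 rose 2.27-fold (log2 1.18, SE 0.18, adjusted p = 1.37e-09) and 4.25-fold (log2 2.09, SE 0.18, adjusted p = 2.31e-30) per the authors' deposited table. Thrombomodulin, THBD, rose by a log2 of 1.34 (SE 0.090) and 1.46 (SE 0.090), and the adaptor PRAM1 by 0.93 (SE 0.082) and 1.23 (SE 0.082). ASB2, a ubiquitin ligase subunit, rose by 0.56 (SE 0.20, adjusted p = 0.0437, 0.0786 with no filter on low means) and 0.74 (SE 0.20, adjusted p = 0.00226). CD38, named here after its value was seen, was the fifth to rise under mezigdomide (0.36, SE 0.089, adjusted p = 0.000579). Against these, CEBPE, a regulator of granulocyte maturation, stood at 28.4% and 27.1% of DMSO (log2 -1.81 and -1.88, SE 0.16 and 0.15), and the adhesion molecule ICAM1 fell under both drugs (log2 -0.94 and -0.84, SE 0.20 for each) per the authors' deposited table. The list was thus split between both directions, with CYP26A1 and CYP26B1 at 0 in all groups and RARB low.

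**Figure D5:**
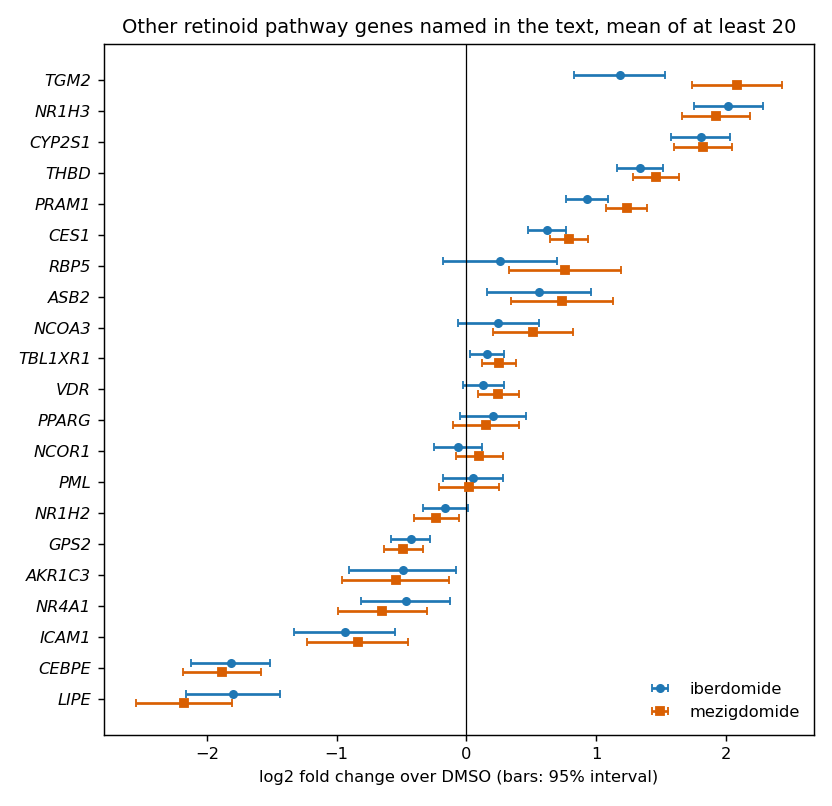
Log2 fold change over DMSO (horizontal axis) of 21 other retinoid pathway genes named by rule whose mean was 20 normalised counts or more, with circles for iberdomide, squares for mezigdomide and bars for 95% intervals. TGM2, THBD, NR1H3 and CYP2S1 lie to the right at 1.18 or more under each drug, and CEBPE and LIPE to the left at -1.80 or less.

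In the direct test of mezigdomide against iberdomide, 0 of the 58 other pathway genes tested passed. It was a two-sided normal test with independent errors and Benjamini-Hochberg adjustment over 19497 genes. Taking the errors as independent is too strict, since the drugs share their DMSO libraries. At an unadjusted p under 0.05, 3 were higher and 0 lower. The share of all genes at that unadjusted threshold was not computed, so nothing is read from these counts. Over all genes 0.108% passed after adjustment, 0.0462% higher and 0.0615% lower under mezigdomide. With an error correlation of 0.5, where 0.605% of all genes passed, 2 of the 58 did. Both were higher under mezigdomide, namely TGM2 (0.91, adjusted p = 0.000192) and PRAM1 (0.30, adjusted p = 0.0409). With independent errors their adjusted p-values were 0.177 and 1. The calls that single drugs gave for VDR, NR4A1, RBP5, NCOA3, TBL1XR1 and CD38 under mezigdomide alone are not shown to differ between the drugs.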

How the data were processed

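RNA of 9 libraries (3 groups of 3) was poly(A)-selected and read as 37 bp pairs, per the labels' protocols. The submitters' processing notes list DESeq2, HTSeq 0.6.1pl, STAR 2.7.5a, SAMtools 1.95, bcl2fastq 2.20.0.422, Picard 2.9.4 and the GRCh38 build, without roles. For counting options and annotation release, nothing is given in the sources used here.

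Per the file headers, the authors deposited for each drug a mean signal (counts divided by size factors, averaged over 9 libraries), a log2 fold change and its SE, a Wald score, and a raw and a Benjamini-Hochberg adjusted p-value. Genes with 1 read in 1 library had log2 values of at most 0.0132 in size, from which the deposited fold changes are taken to be shrunk towards 0, which understates changes of low genes. The p-values were checked to be two-sided normal values of the score, and the adjusted ones Benjamini-Hochberg values. From 59699 rows, 44 chromosome Y copies and 92 rows without a gene (3.39e-05% of the signal) were left out. Called means an adjusted p under 0.05.

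The members and lists were chosen with earlier results of these data known. All 9 members are named. Of the other lists, genes called with a mean of at least 20 are named, up to 6 a list and drug by size, plus 13 key genes regardless of value, of which some are not reported here. A group level is the value that gives the deposited mean together with both fold changes. Exon lengths, overlaps and coordinates come from GENCODE release 29, and promoters from RefSeq. The difference between drugs took both SEs as independent. The difference test was run on simulated normal errors with a correlation of 0.5. A pass limit was set there only for the version that takes this correlation, not for the one with independent errors. The adjustment was compared with that of statsmodels on the deposited iberdomide p-values. The count test foreseen for values per library could not be used, so the authors' Wald test stands. Alternatives were no filter, a mean of at least 50, centring at genes with a mean of at least 100, removal of a lowess trend (fraction 0.3) on GC content and length, a threshold of 0.01, and an error correlation of 0.5. Removal of the trend from the difference between drugs was added after seeing the data. Python 3.11.15, scipy 1.17.1 and statsmodels 0.14.6 were used.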

Additional observations from a re-analysis of the deposited data

How the results depend on the processing

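No paired analysis was possible because the deposited tables used here hold no value per library. Leaving out each replicate, other count tools and other normalizations of the counts were not run for the same reason. Over 75 values of single retinoid genes under the alternatives, 69 kept their side of the threshold, 1 lost its call and 5 gained one. Among values with a call, 0 reversed direction. CRABP2 under mezigdomide, which had no call, changed sign from -0.0090 to 0.0047 after centring and 0.062 with the trend removed. The lost call was RARA under mezigdomide with the GC and length trend removed (-0.20, adjusted p = 0.242). The calls gained were RARA under iberdomide with a mean of at least 50, after centring or with the trend removed (0.30, 0.30 and 0.41), and RDH10 under mezigdomide with a mean of at least 50 or after centring (0.22 and 0.23). The calls of RARG, ALDH1A3 and RXRA held under every alternative run. The count of other pathway genes that differed between the drugs went from 0 to 2 with an error correlation of 0.5. Over all genes that count went from 21 to 118. With the longest transcript as length, the RARG share of the RAR level in DMSO was 15.7% in place of 14.3%, with no replicate spread to set it against. Centring moved all fold changes by at most 0.014. At this depth a change in CRABP2 was not detectable.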
